A study of Mus musculus with 12 samples.

Results

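Homologous recombination and Fanconi genes were examined in mouse melanoma cells that had been partially reprogrammed and treated with a MEK inhibitor. The 9 genes listed were Brca1, Brca2, Rad51ap1, Fancd2, Fanca, Fanci, Blm, Exo1 and Xrcc2, taken by name with every probe set annotated to 1 of them alone. Where a gene had several, the one with the highest 12-array mean stood for the gene. A probe set of this kind was found for 8 of the 9 genes, out of 18193 genes measured in all, and Xrcc2 is not analysed here.

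C790 is an Nras-mutant mouse melanoma cell line. Every array came from C790 cells carrying a doxycycline-inducible lentiviral vector for Oct4, Sox2, Klf4 and blasticidin resistance together with a second vector for the constitutive M2 transactivator and mCherry. Partially reprogrammed cells received doxycycline (+dox) and were selected with blasticidin, and control cells carried both vectors without induction (−dox). At day 20 the +dox and −dox cells were exposed for 72 h to trametinib, an inhibitor of the kinase MEK, or to its vehicle DMSO. The groups were +dox trametinib, +dox DMSO, −dox trametinib and −dox DMSO, with 3 arrays each. The labels give numbered replicates and do not say whether these were separate cultures, so p-values measure the spread between these arrays, which may be technical. The dose of trametinib for the arrays is not given in the sources used here.

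Homologous recombination copies an intact sister chromatid to repair a double-strand break and is used mainly in the S and G2 phases of the cell cycle. The broken ends are resected to single strands, Brca1 and Brca2 prepare these strands to invade the intact copy, and the joined molecules are later separated by helicases and nucleases. The Fanconi pathway removes cross-links between DNA strands at stalled replication forks: a core complex attaches ubiquitin to the Fancd2-Fanci pair, and the repair is completed with the recombination proteins. Many of these genes are transcribed periodically in cycling cells, through E2F sites and other cell cycle elements in their promoters.

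The promoters of 6 of the 9 genes, those of Brca1, Brca2, Rad51ap1, Fanca, Fanci and Blm, were matched in RefSeq (build GRCm38.p6) and are shown. No entry was found for Fancd2, Exo1 and Xrcc2, and a link between promoter words and array changes was not tested. Each sequence runs from 190 bases before to 30 bases after the annotated start, 5′ to 3′ on the strand of the gene. Capitals mark, on either strand, the E2F word TTCCCGC, its relative TTGGCGC, the further E2F forms TTCGCGC as well as TTGCCGC, and the NF-Y word CCAAT. The stretches lie at chr11:101551926-101552145 (minus strand, Brca1), chr5:150522431-150522650 (plus strand, Brca2), chr6:126939558-126939777 (minus strand, Rad51ap1), chr8:123318547-123318766 (minus strand, Fanca), chr7:79392148-79392367 (plus strand, Fanci) and chr7:80534969-80535188 (minus strand, Blm).
Brca1: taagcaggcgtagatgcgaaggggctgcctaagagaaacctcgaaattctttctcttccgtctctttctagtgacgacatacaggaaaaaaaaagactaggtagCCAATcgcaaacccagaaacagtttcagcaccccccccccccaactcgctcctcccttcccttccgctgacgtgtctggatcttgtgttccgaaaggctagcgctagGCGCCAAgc
Brca2: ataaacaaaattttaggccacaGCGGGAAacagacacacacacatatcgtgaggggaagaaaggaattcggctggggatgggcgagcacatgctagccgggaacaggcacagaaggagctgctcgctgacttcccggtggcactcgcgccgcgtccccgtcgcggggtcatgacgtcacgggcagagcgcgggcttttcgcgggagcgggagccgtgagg
Rad51ap1: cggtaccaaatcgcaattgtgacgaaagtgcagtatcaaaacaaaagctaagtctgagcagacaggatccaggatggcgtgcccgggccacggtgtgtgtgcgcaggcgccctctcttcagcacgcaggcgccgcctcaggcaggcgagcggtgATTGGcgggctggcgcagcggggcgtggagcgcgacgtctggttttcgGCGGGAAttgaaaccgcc
Fanca: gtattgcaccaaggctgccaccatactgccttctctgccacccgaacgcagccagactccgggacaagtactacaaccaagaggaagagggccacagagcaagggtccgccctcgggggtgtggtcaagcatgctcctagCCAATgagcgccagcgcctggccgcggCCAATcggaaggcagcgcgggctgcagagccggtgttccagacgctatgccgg
Fanci: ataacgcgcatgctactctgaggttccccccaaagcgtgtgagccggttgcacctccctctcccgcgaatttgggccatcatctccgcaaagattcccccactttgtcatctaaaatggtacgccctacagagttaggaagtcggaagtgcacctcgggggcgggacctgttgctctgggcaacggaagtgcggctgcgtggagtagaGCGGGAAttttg
Blm: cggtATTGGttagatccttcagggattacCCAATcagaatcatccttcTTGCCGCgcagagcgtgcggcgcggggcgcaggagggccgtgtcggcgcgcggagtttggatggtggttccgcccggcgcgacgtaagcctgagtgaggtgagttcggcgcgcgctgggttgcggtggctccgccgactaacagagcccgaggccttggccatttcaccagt

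An E2F word stood in 5 of these 6 promoters when the whole window of 250 bases before to 50 after the start was searched, against 9.57% of 32851 promoters of the same length. It lay just inside the transcribed part in 3 genes, at bases 13 to 19 of Rad51ap1, 19 to 25 of Fanci and 22 to 28 of Brca1, counted from the start as base 1. In Brca2 it lay at -168 to -162 and in Blm at -142 to -136. Fanca had none of the 4 words in this window. CCAAT, the word bound by the factor NF-Y, was found in 4 of the 6 promoters, with 2 copies each in Rad51ap1, Fanca and Blm, against 37.4% of all promoters. The copy at -230 to -226 of Rad51ap1 lies outside the stretch shown. The word TTTGAA of the cell cycle homology region, searched on both strands, was in 0 of the 6, against 17.9% of all. An E2F word was also held by 35.1% of 37 promoters of other homologous recombination genes, by 45.5% of 22 promoters of other Fanconi genes and by 64.3% of 14 promoters of proliferation genes. The windows of the 6 genes held 53.7 to 66% G and C, against a median of 52.7% over all promoters. No match overlapped another, and a match describes the letters and not a bound site.

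The arrays were first checked against their labels. All 7 genes of ERK output, the transcriptional readout downstream of MEK, fell with trametinib in +dox and in −dox cells. The probe sets of the reprogramming factors gave no clear check of dox. Pou5f1, which encodes Oct4, was higher in +dox than in −dox cells under DMSO by at least 0.59 on the log2 scale (limma, adjusted p = 0.016), its −dox mean lying under the background level of 4.86 log2 units, while the log2 changes were -1.53 for Sox2 (adjusted p = 0.091) and -0.15 for Klf4 (adjusted p = 0.8). Whether these probe sets cover the vector's copies is not given in the sources used here. Of 8 melanocyte markers, Tyr, Tyrp1, Dct, Mlana and Kit lay under the background level on all arrays, while Mitf (6.56 to 8.70), Sox10 (5.59 to 6.26) and Pmel (5.76 to 6.13) lay above it. That level was taken from 86 probe sets of olfactory, vomeronasal and taste receptors, as the 95th percentile of their mean values. The leukocyte markers Ptprc (at most 3.04) and Adgre1 (at most 4.19) were under it on every array, Cd68 (5.24 to 8.88) and Cd3e (5.31 to 5.87) were above it on every array, and Itgam (2.97 to 6.90) was above it on some.

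Trametinib lowered most of the 8 genes in both kinds of cell. In +dox cells 6 of 8 fell and 0 rose at an adjusted p under 0.05, where 12.5% of all 18193 genes fell and 13.8% rose. In −dox cells 7 of 8 fell and 0 rose, where 10.8% of all genes fell and 11.6% rose. The median log2 change of the 8 genes was -1.26 in +dox cells and -1.84 in −dox cells, and that of all genes was 0.02 in +dox and 0.06 in −dox cells. All 3 trametinib arrays lay under all 3 DMSO arrays for 7 of 8 genes in +dox cells and for 8 of 8 in −dox cells, a pattern shown by 18.6% of all genes in +dox cells and 15.2% in −dox cells. In RNA from whole cultures, fewer cells that express a gene and less RNA per cell cannot be told apart.

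**Figure D1:**
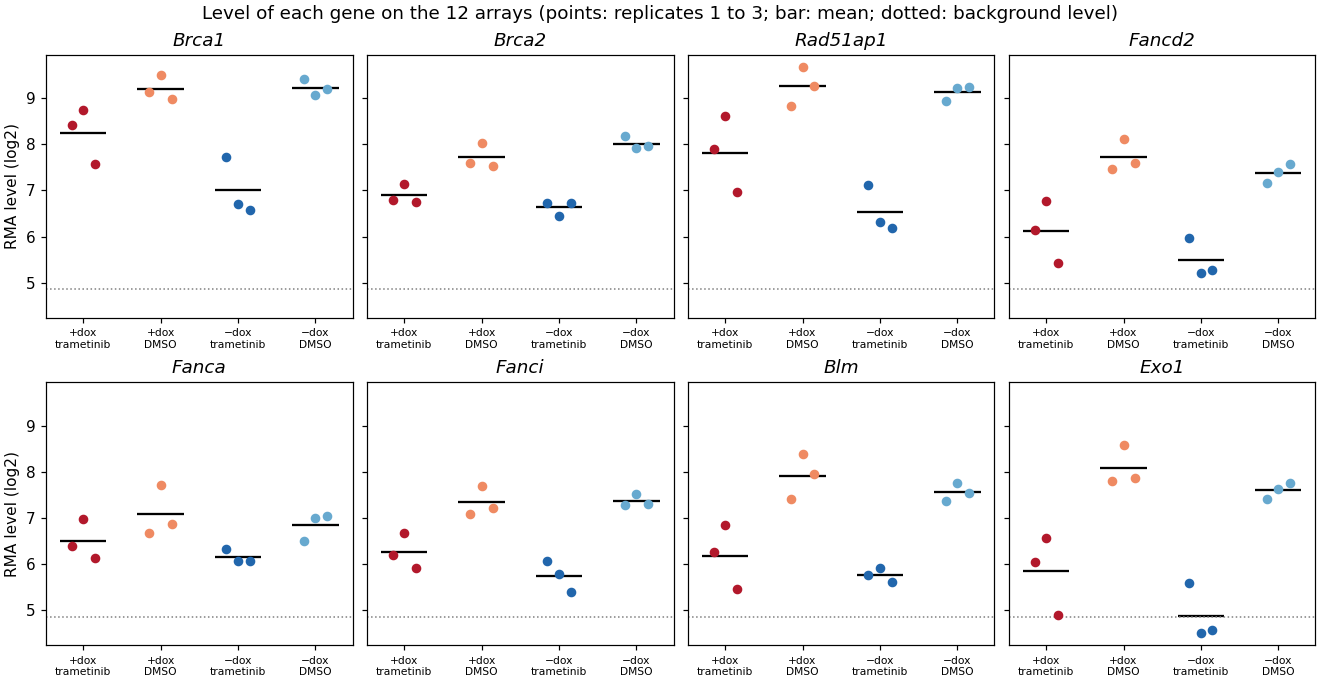
Level of the 8 genes on each of the 12 arrays. Each panel is a gene, the y axis is the RMA level in log2 units, points are the 3 arrays of a group, bars are group means, and the dotted line is the background level of 4.86. The trametinib arrays sit under the DMSO arrays of the same cells in every panel except for +dox cells in Fanca, and only Exo1 reaches the background level.

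Exo1, the exonuclease of long-range end resection that also acts in mismatch repair, had the largest change of the 8 genes in both kinds of cell. It measured 6.05, 6.57 and 4.90 in +dox trametinib cells, against 7.80, 8.59 and 7.87 in +dox DMSO cells, in replicates 1, 2 and 3. In −dox cells it measured 5.58, 4.50 and 4.56 with trametinib, against 7.42, 7.62 and 7.76 with DMSO. The groups with and without drug did not overlap in either kind of cell, and 2 of the −dox trametinib arrays lay under the background level. The change was -2.25 ± 0.40 in +dox cells (limma, SE, adjusted p = 0.0018) and -2.72 ± 0.40 in −dox cells (adjusted p = 0.00078), or 4.75-fold and 6.59-fold lower.

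Rad51ap1, which promotes strand invasion, followed the same order. Its level was 7.89, 8.61 and 6.96 in +dox trametinib cells, against 8.84, 9.68 and 9.26 in +dox DMSO cells. In −dox cells it was 7.11, 6.32 and 6.18 with trametinib, against 8.93, 9.23 and 9.24 with DMSO. Trametinib arrays were low in both, and replicate 3 of +dox cells was closer to the −dox trametinib arrays than to replicate 2 of its own group. Rad51ap1 changed on the log2 scale by -1.44 ± 0.38 in +dox cells (limma, adjusted p = 0.015) and -2.60 ± 0.38 in −dox cells (adjusted p = 0.00069), or 2.71-fold and 6.05-fold lower. The call in +dox cells was lost without +dox DMSO replicate 2, where the change was -1.23 (adjusted p = 0.063).

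Brca1, the ubiquitin ligase that promotes resection and recruits Palb2 and Brca2, passed the test in −dox cells alone. It measured 8.42, 8.75 and 7.57 in +dox trametinib cells, against 9.13, 9.51 and 8.98 in +dox DMSO cells. In −dox cells its level was 7.73, 6.70 and 6.57 with trametinib, against 9.42, 9.07 and 9.20 with DMSO. The groups did not overlap in either kind of cell. The log2 change was -2.23 ± 0.33 in −dox cells (limma, adjusted p = 0.0008), or 4.69-fold lower. In +dox cells it was -0.96 ± 0.33 (95% CI -1.69 to -0.23, adjusted p = 0.055), and with the replicate number as a block the adjusted p was 0.027. It also passed with +dox trametinib replicate 2 left out (-1.21, adjusted p = 0.03), and with −dox trametinib replicate 1 left out (adjusted p = 0.02). In all, Brca1 passed in +dox cells in 10 of 23 alternatives. Without single arrays its change there ran from -1.21 to -0.62.

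Brca2, which acts on the resected single strands before they invade, had the smallest standard error of the 8 genes. Its level was 6.80, 7.15 and 6.76 in +dox trametinib cells, against 7.60, 8.03 and 7.52 in +dox DMSO cells. In −dox cells it was 6.72, 6.45 and 6.73 with trametinib, against 8.18, 7.91 and 7.96 with DMSO. No trametinib array reached a DMSO array of the same cells. Brca2 changed on the log2 scale by -0.81 ± 0.16 in +dox cells (limma, adjusted p = 0.0029) and -1.38 ± 0.16 in −dox cells (adjusted p = 0.00019).

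Blm, the RecQ helicase that is mutated in Bloom syndrome and that resects ends and dissolves joined molecules, measured 6.25, 6.85 and 5.45 in +dox trametinib cells, against 7.40, 8.38 and 7.96 in +dox DMSO cells. In −dox cells the level was 5.77, 5.91 and 5.61 with trametinib, against 7.36, 7.75 and 7.55 with DMSO. Blm fell in both kinds of cell without overlap, with log2 changes of -1.73 ± 0.32 in +dox cells (limma, adjusted p = 0.002) and -1.79 ± 0.32 in −dox cells (adjusted p = 0.0021).

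Of the Fanconi genes, both members of the ubiquitinated pair fell. Fancd2 measured 6.14, 6.78 and 5.43 in +dox trametinib cells, against 7.47, 8.12 and 7.60 in +dox DMSO cells, and 5.98, 5.22 and 5.27 in −dox trametinib cells, against 7.17, 7.41 and 7.58 in −dox DMSO cells. Its partner Fanci measured 6.19, 6.68 and 5.92 in +dox trametinib cells, against 7.09, 7.70 and 7.22 in +dox DMSO cells, and 6.06, 5.78 and 5.39 in −dox trametinib cells, against 7.27, 7.51 and 7.31 in −dox DMSO cells. Neither gene had an overlap between trametinib and DMSO arrays. The log2 change of Fancd2 was -1.61 ± 0.32 in +dox cells (limma, adjusted p = 0.003) and -1.90 ± 0.32 in −dox cells (adjusted p = 0.0015). That of Fanci was -1.07 ± 0.23 in +dox cells (adjusted p = 0.0044) and -1.62 ± 0.23 in −dox cells (adjusted p = 0.00055).

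Fanca, a subunit of the core complex that attaches the ubiquitin, had the smallest change and passed in neither kind of cell. It measured 6.38, 6.97 and 6.12 in +dox trametinib cells, against 6.67, 7.72 and 6.86 in +dox DMSO cells, where the groups overlapped. In −dox cells the level was 6.33, 6.06 and 6.06 with trametinib, against 6.50, 6.99 and 7.03 with DMSO, without overlap. The log2 change was -0.59 in +dox cells (95% CI -1.21 to 0.02, limma, adjusted p = 0.16) and -0.69 in −dox cells (95% CI -1.31 to -0.07, adjusted p = 0.11). In −dox cells Fanca passed without +dox DMSO replicate 2 (adjusted p = 0.047), with only the arrays compared (adjusted p = 0.04) and with array weights (-0.91, adjusted p = 0.0029). The other 18 alternatives did not change this result. Within same-numbered arrays of +dox cells the trametinib level of Fanca was lower in all 3 pairs, by -0.29, -0.75 and -0.74. For the other genes measured this follows from the lack of overlap, and the share of all genes with this pattern was not counted.

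The question of whether partially reprogrammed cells responded to the drug differently was put to the difference between both responses. The response of +dox cells was the smaller one for 8 of 8 genes. Their median difference was 0.51 on the log2 scale, against -0.02 for all genes (0.22 without +dox trametinib replicate 2, 0.73 without +dox DMSO replicate 2). The share of all genes with a difference above 0 was not counted. Of the 15 measured proliferation markers 13 had one, with a median of 0.50. The 8 genes moved together on shared arrays, so their signs are not separate observations. Among them 0 of 8 differences passed (limma), where 0.258% of all genes had a higher and 0.0715% a lower response. At an unadjusted p under 0.05, where the share of all genes was not counted, there were 2, Brca1 and Brca2. Brca1 differed by 1.27 (95% CI 0.24 to 2.30, adjusted p = 0.31) and Brca2 by 0.57 (95% CI 0.08 to 1.06, adjusted p = 0.34). The interval of Rad51ap1, at 1.16 (95% CI -0.02 to 2.33), also leaves room for a response in +dox cells much smaller than in −dox cells. For Blm, with a difference of 0.06, the interval of -0.93 to 1.05 allows a difference of about a doubling either way. The signs of the differences for Fancd2, Fanca and Blm turned without +dox trametinib replicate 2, to -0.05, -0.14 and -0.27.

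**Figure D2:**
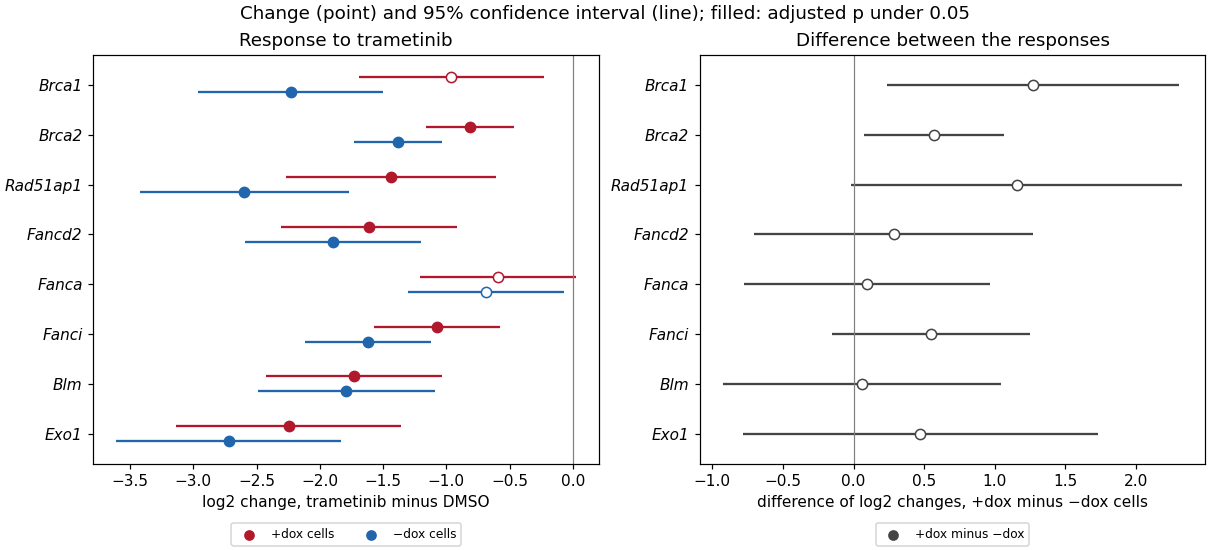
Response of the 8 genes to trametinib. The left panel plots the log2 change, trametinib minus DMSO, in +dox and −dox cells, and the right panel the difference between both changes, with 95% confidence intervals as lines and filled points at an adjusted p under 0.05. Every point on the left is under 0, from -0.59 to -2.72, and every point on the right is above 0 and open.

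Differences between +dox and −dox cells without the drug were smaller. Under DMSO 0 of 8 genes passed between +dox and −dox cells, and 0 had an unadjusted p under 0.05 (limma), where 3.28% of all genes were lower and 2.87% higher in +dox cells. The median log2 change was 0.19, and its sign turned to -0.079 without +dox DMSO replicate 2. It was 0.39 without +dox DMSO replicate 1 and 0.073 without −dox DMSO replicate 1. Single genes ran from -0.30 for Brca2 (95% CI -0.65 to 0.05) to 0.49 for Exo1 (95% CI -0.40 to 1.38). Exo1 was the gene whose 3 +dox arrays all lay above the −dox arrays, and the share of all genes with this pattern was not counted. The intervals of Brca1 (-0.75 to 0.71) and Fanci (-0.52 to 0.47) centre close to 0 and do not show that their levels were equal.

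Under trametinib all 8 genes had a higher mean in +dox than in −dox cells, with a median log2 change of 0.57 against -0.02 for all genes, and 0 of 8 passed, where 1.42% of all genes were lower and 1.95% higher. With +dox trametinib replicate 2 left out the median was 0.30, and with replicate 3 of that group left out it was 0.88. The share of all genes with a higher mean in +dox cells was not counted. Of the 15 measured proliferation markers 14 had one, with a median of 0.63, and 0 passed. The share of all genes with an unadjusted p under 0.05 was not counted. That threshold was reached by 4 of the 8 genes (limma), all with the higher mean in +dox cells. These were Rad51ap1 at 1.28 (95% CI 0.45 to 2.11, adjusted p = 0.1), Brca1 at 1.25 (95% CI 0.52 to 1.98, adjusted p = 0.073), Exo1 at 0.96 (95% CI 0.07 to 1.85, adjusted p = 0.3) and Fanci at 0.52 (95% CI 0.02 to 1.02, adjusted p = 0.31). With the replicate number as a block, Brca1 passed at an adjusted p of 0.034 and the other 7 genes did not. Leaving out +dox trametinib replicate 3 gave an adjusted p of 0.026 for Brca1 and 0.022 for Rad51ap1, and leaving out −dox trametinib replicate 1 gave 0.012 and 0.048. The arrays of both groups overlapped for 7 of the 8 genes, Brca2 being the exception at 6.76 to 7.15 in +dox cells and 6.45 to 6.73 in −dox cells. Its change was 0.27 (limma, adjusted p = 0.51), and the share of all genes without overlap was not counted in this comparison.

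**Figure D3:**
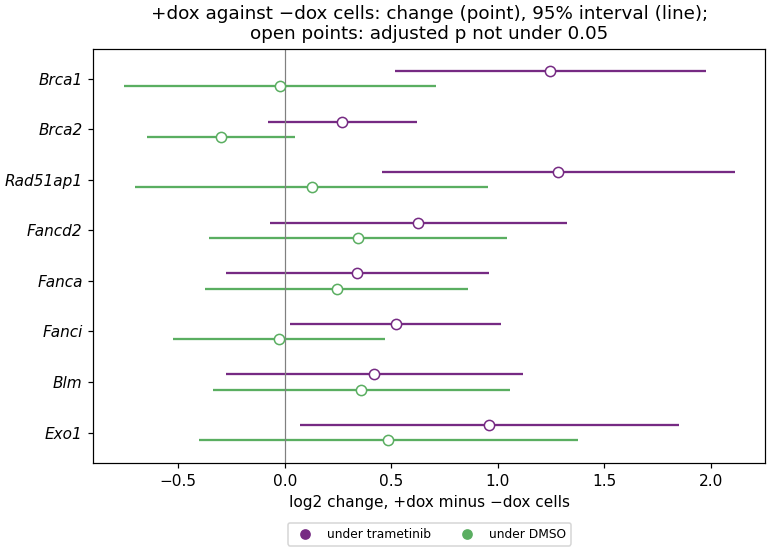
The 8 genes in +dox against −dox cells. The x axis is the log2 change, +dox minus −dox, under trametinib and under DMSO, with 95% confidence intervals as lines, and all points are open because no adjusted p was under 0.05. Under trametinib the changes run from 0.27 to 1.28, and under DMSO from -0.30 to 0.49.

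The 4 groups therefore stood in nearly 1 order for every gene. The −dox trametinib group had the lowest mean for 8 of 8 genes and the +dox trametinib group the next. The highest mean was that of +dox DMSO cells for 5 genes (Rad51ap1, Fancd2, Fanca, Blm and Exo1) and of −dox DMSO cells for the other 3. In the fit without a replicate block, neither neighbouring pair, the trametinib groups or the DMSO groups, passed the test for any of the 8 genes. These comparisons share arrays, so their values do not stand apart from each other.

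Within groups the genes also moved together from array to array. Replicate 2 of +dox trametinib cells was the highest of its group and replicate 3 the lowest for all 8 genes, at 0.56 and -0.59 log2 units from the group mean on average. Replicate 2 of +dox DMSO cells was the highest for all 8 (0.42), and replicate 1 of −dox trametinib cells for 6 (0.39). The 15 measured proliferation markers deviated alike on these arrays, by 0.67 and -0.71 on the +dox trametinib arrays, 0.37 on the +dox DMSO array and 0.36 on the −dox trametinib array. Centred on their means over the 12 arrays, the 8 genes averaged -0.44 ± 0.58 in +dox trametinib, 0.87 ± 0.38 in +dox DMSO, -1.15 ± 0.34 in −dox trametinib and 0.72 ± 0.09 in −dox DMSO cells (SD, n = 3). The proliferation markers averaged -0.46 in +dox trametinib, 0.84 in +dox DMSO, -1.09 in −dox trametinib and 0.71 in −dox DMSO cells, and the gap between both means stayed within -0.09 to 0.13 on every array. The part of proliferation in the changes of the 8 genes was not tested.

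**Figure D4:**
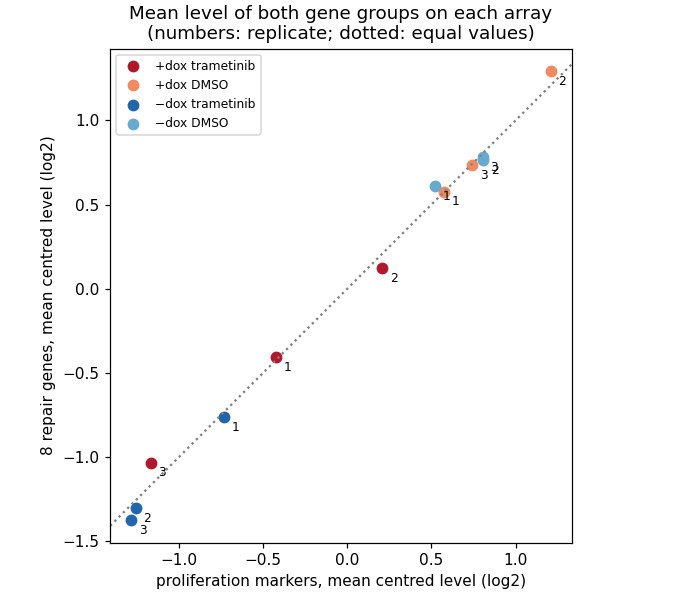
Mean level of the 8 repair genes (y axis) against that of the 15 proliferation markers (x axis) on each of the 12 arrays, both in log2 units after each gene was centred on its own mean. Colours are the groups, numbers the replicates and the dotted line equal values. The arrays lie along the line, with the DMSO arrays at the upper end.

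Across the 12 arrays, which share the 4 groups, the correlation of each gene with the mean of the other 7 ran from 0.875 for Fanca to 0.992 for Fancd2, and with the mean of the proliferation markers from 0.895 to 0.995. The 6 genes most like the mean of the 8, by Pearson correlation over the 12 arrays, were Birc5 (0.9956), Uhrf1 (0.9952), Cdca5 (0.9950), Kif4 (0.9949), Mcm5 (0.9947) and Incenp (0.9946). Birc5 and Incenp encode subunits of the chromosomal passenger complex, Cdca5 the cohesin regulator sororin, Kif4 a chromosome-bound kinesin, Mcm5 a subunit of the replicative helicase and Uhrf1 the factor that carries DNA methylation through replication. With trametinib Birc5 changed on the log2 scale by -1.80 ± 0.38 in +dox cells and -2.62 ± 0.38 in −dox cells. These 6 genes were picked for their likeness on the same arrays. A fall with trametinib therefore follows from the choice and is not a separate result.

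The genes have 21 probe sets in all, 1 each for Brca2 and Blm and several for the other 6. Of the 13 probe sets that did not represent a gene, 7 had a group mean above the background level, and 7 of 7 fell in both kinds of cell with p-values adjusted over all single-gene probe sets. The 2 of these for Brca1, 1424630_a_at and 1451417_at, changed by -1.20 (limma, adjusted p = 0.022) and -1.21 (adjusted p = 0.031) in +dox cells, where the probe set that represented Brca1 had missed the threshold. In −dox cells 1424630_a_at of Brca1 and 1418027_at of Exo1 had means under the background level with trametinib, so the falls there were at least 1.49 and 1.85 on the log2 scale. The other 6 probe sets were under the background level in all groups.

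The rest of the recombination machinery moved with these genes in part. Of 42 other homologous recombination genes 40 were measured, and 25 fell and 1 rose in +dox cells, against 20 and 1 in −dox cells, with medians of -0.65 and -0.51. Rad54b, a DNA translocase of recombination, changed on the log2 scale by -2.11 in +dox cells (limma, adjusted p = 0.0011) while the fall in −dox cells was 2.56 or more (adjusted p = 0.00026), since its trametinib mean was under the background level. Parpbp, a PCNA-binding protein that restrains recombination in human cells, changed by -1.82 in +dox cells (adjusted p = 0.0015) and -2.18 in −dox cells (adjusted p = 0.0007). For Brip1, the helicase partner of Brca1, the change was -1.41 in +dox cells (adjusted p = 0.0074) and, bounded in the same way, a fall of 1.66 or more in −dox cells (adjusted p = 0.001). The genes that rose were Rmi1, a partner of Blm, in +dox cells (0.56, adjusted p = 0.01) and the helicase gene Recql5 in −dox cells (0.42, adjusted p = 0.02). Rmi1 lost its call when its probe sets were averaged (0.27, adjusted p = 0.084), and Recql5 without any of 4 −dox arrays, trametinib replicates 1 and 2 and DMSO replicates 2 and 3 (adjusted p = 0.053 to 0.061).

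Of 21 other Fanconi genes 20 were measured, and 6 fell and 0 rose in each kind of cell, a smaller share than of the recombination genes, with medians of -0.21 in +dox and -0.37 in −dox cells. The difference of the shares was not tested. Fancb, a core complex subunit, changed on the log2 scale by -1.98 in +dox cells (limma, adjusted p = 0.00081) while its fall in −dox cells was 1.96 or more (adjusted p = 0.00088), since its trametinib mean was under the background level. Ube2t, the enzyme that hands ubiquitin to Fancd2, changed by -1.81 in +dox cells (adjusted p = 0.0016) and -1.91 in −dox cells (adjusted p = 0.0015). Cenps, which works with Fancm at forks, changed by -1.40 in +dox cells (adjusted p = 0.0074) and -1.95 in −dox cells (adjusted p = 0.0014). Mad2l2, a subunit of translesion polymerase zeta and of shieldin, fell in +dox cells (-0.96, adjusted p = 0.004) and had a change of -0.49 in −dox cells (adjusted p = 0.11). Without −dox DMSO replicate 1 the change in −dox cells was -0.71 (adjusted p = 0.011). Over both lists, 4 of 60 genes differed between +dox and −dox cells under DMSO, 2 lower and 2 higher, shares near the 3.28% and 2.87% of all genes. Mre11a (0.87) and Rad51d (0.63) were higher and Rtel1 (-1.13) and Mcm9 (-0.64) lower in +dox cells, with adjusted p of 0.023, 0.031, 0.0037 and 0.021. Under trametinib 0 of 60 passed (8 at an unadjusted p under 0.05), and for the difference between responses 0 of 60 (7 at an unadjusted p under 0.05). The shares of all genes at this unadjusted p were not counted. The count of 4 under DMSO fell to 1 when +dox DMSO replicate 3 was left out, and to 2 when +dox DMSO replicate 2, −dox DMSO replicate 2 or −dox DMSO replicate 3 was. Under trametinib the count became 3 when −dox DMSO replicate 1 was left out and 1 when −dox trametinib replicate 1 was.

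**Figure D5:**
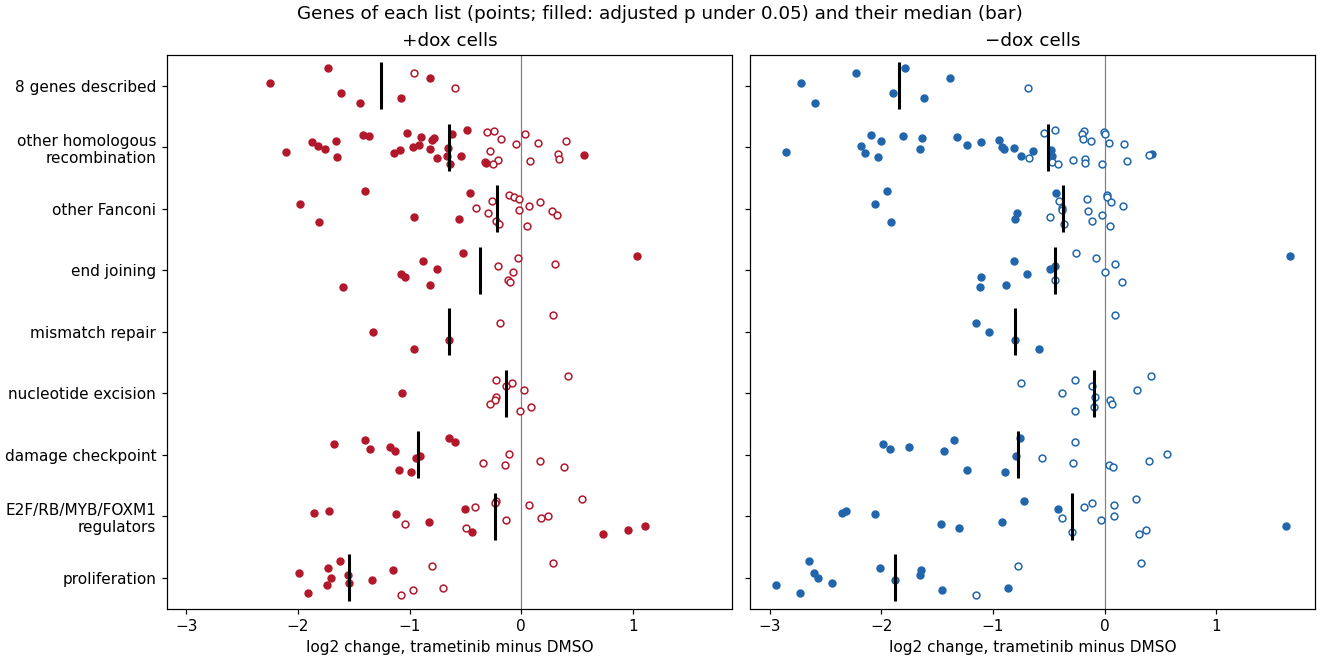
Log2 change with trametinib of every measured gene in 9 lists, in +dox cells (left) and −dox cells (right). Points are genes, filled at an adjusted p under 0.05, and bars are list medians. The 8 genes described and the proliferation markers have the lowest medians, -1.26 and -1.54 in +dox cells and -1.84 and -1.88 in −dox cells.

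Other repair and cell cycle lists set the scale for these changes, beside the 12.5% of all genes that fell in +dox cells and the 10.8% in −dox cells. Proliferation markers fell for 10 of 15 in +dox cells and 12 of 15 in −dox cells, and DNA damage checkpoint genes for 11 of 16 in +dox and 9 of 16 in −dox cells. End joining genes fell for 7 of 14 in both, mismatch repair genes for 3 of 5 in +dox and 4 of 5 in −dox cells, and nucleotide excision repair genes for 1 of 11 in +dox and 0 of 11 in −dox cells. The share of the last list was not above that of all genes. In it 4 of 11 genes had an unadjusted p under 0.05 in −dox cells (limma), 2 lower and 2 higher with trametinib. The share of all genes at this unadjusted p was not counted. Chek1, the checkpoint kinase that acts upstream of recombination at stalled forks, changed on the log2 scale by -1.68 in +dox cells (adjusted p = 0.0057) and -1.99 in −dox cells (adjusted p = 0.0028). Lig4, the ligase of end joining, moved the other way, by 1.03 in +dox cells (adjusted p = 0.0051) and 1.66 in −dox cells (adjusted p = 0.00045), while Xrcc6, which encodes the Ku70 end-binding protein, changed by -1.60 in +dox cells (adjusted p = 2.5e-05) and -1.11 in −dox cells (adjusted p = 0.00031). Among 19 E2F, RB, MYB and FOXM1 regulators 6 fell and 3 rose in +dox cells, and 8 fell and 1 rose in −dox cells. Of all genes 13.8% rose in +dox cells and 11.6% in −dox cells. Rb1, the pocket protein that restrains E2F, rose with trametinib by 1.11 in +dox cells (adjusted p = 3.1e-05) and 1.62 in −dox cells (adjusted p = 7.4e-06), and E2f8, an atypical E2F repressor expressed in S phase, changed by -1.86 in +dox cells (adjusted p = 0.0076) and -2.35 in −dox cells (adjusted p = 0.0025).

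Markers of other cell types did not all keep the same level between groups. The summed linear level of the 6 fibroblast markers ran from 1246 to 1356 in +dox trametinib, 292.1 to 421 in +dox DMSO, 2570 to 2645 in −dox trametinib and 1165 to 1477 in −dox DMSO cells. For the 5 leukocyte markers measured the sum ran from 123.1 to 181.2 in +dox trametinib, 184.6 to 595.9 in +dox DMSO, 151.8 to 288.2 in −dox trametinib and 119.4 to 214.4 in −dox DMSO cells, with Ptprc and Adgre1 under the background level and Cd68 and Cd3e above it on all arrays. Itgam fell with trametinib in +dox cells (limma, adjusted p = 0.013) and was higher in +dox than in −dox cells under DMSO (adjusted p = 0.014), by at least 0.74 log2 units in both, and Cd3e was higher with trametinib in −dox cells by 0.35 (adjusted p = 0.034). Melanoma cells can also express the fibroblast markers that were above it, Col1a1, Dcn and Pdgfra, and the part of either list in the changes of the 8 genes was not tested.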

How the data were processed

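RNA of C790 cells was measured on Affymetrix mouse expression arrays, 12 in all and 3 per group. The deposited values are log2 intensities, 1 per probe set, which the authors had obtained by RMA in the software Chipster, and they were used unchanged. RMA scales all arrays to 1 distribution, so changes are relative to the other genes of an array. The table holds no detection calls, and the number of arrays limits the precision.

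Of 45101 probe sets, 34945 are annotated to a single gene. For a gene with several, the brightest by 12-array mean was used, leaving 18193 genes, and low values were not filtered. The test was that of limma 3.58.1 (R 4.3.3, lmFit and eBayes) fitted to the 4 group means without covariates. Benjamini-Hochberg adjustment ran over the 18193 genes within each comparison, and the threshold was 0.05. Errors of a change are standard errors of this fit. Where the mean of 1 group lay under the background level, a called change is written as at least the gap between that level and the mean of the other group. The scripts were tested on simulated data. Promoters are those of RefSeq (GRCm38.p6), and plots were drawn with matplotlib.

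Whether same-numbered arrays form pairs was checked by correlating their deviations from the group means. All 3 pairs exceeded 0.1 for trametinib in +dox cells (0.16 to 0.451), dox under DMSO (0.17 to 0.344) and dox under trametinib (0.212 to 0.286). For trametinib against DMSO in −dox cells 1 pair did not (0.0221 to 0.456). In the other 3 comparisons same-numbered arrays deviated together, although no label says that they form pairs. The counts and values given are from the fit without a replicate block, and the blocked value is given where it changes a call.

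The members, gene lists, promoter words and alternatives were chosen with earlier results of these data known, so no list was tested as a set. Genes named from a list were up to 4 with the largest called trametinib change, up to 2 that moved the other way and any called for the difference between responses, and not all of them are named. The alternatives were the replicate block, only the arrays compared, the mean of probe sets, each single probe set, a filter at the background level, another round of quantile normalisation, centring on the median, array weights, trended and robust eBayes, stricter thresholds and leaving out each array.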

Additional observations from a re-analysis of the deposited data

Results flagged for a closer look

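The mismatch repair gene Msh3 was the only one of the repair genes listed whose trametinib responses differed between +dox and −dox cells past the threshold, by 0.97 on the log2 scale (limma, adjusted p = 0.03). Its means were 7.53 in +dox trametinib and 7.71 in +dox DMSO cells (change -0.19, adjusted p = 0.25), and 6.99 in −dox trametinib and 8.15 in −dox DMSO cells (change -1.16, adjusted p = 5.6e-05). The sign of the dox comparison also turned with the drug. Msh3 was higher in +dox than in −dox cells under trametinib, by 0.53 (adjusted p = 0.019), and lower under DMSO, by -0.44 (adjusted p = 0.034). The difference of 0.97 is the test of that turn. It missed the threshold when the probe sets of Msh3 were averaged (0.30, adjusted p = 0.45), when arrays were centred on their medians (0.93, adjusted p = 0.061) and without any of 7 single arrays (0.89 to 0.99, adjusted p = 0.062 to 0.081). These were +dox trametinib replicates 1 and 2, +dox DMSO replicates 2 and 3, −dox trametinib replicate 3 and −dox DMSO replicates 2 and 3.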

How the results depend on the processing

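Of the 8 genes, 7 to 8 fell with trametinib in −dox cells and 5 to 7 in +dox cells over the alternatives run, and their median changes kept their sign. Among the 60 other homologous recombination and Fanconi genes, the 27 calls in −dox cells became 43 with array weights and 15 with a fold over 2, and 22 to 33 without single arrays. The 32 calls in +dox cells became 19 at an adjusted p under 0.01 and 14 with a fold over 2 (24 to 34 without single arrays). For dox under DMSO the 4 calls became 13 with array weights and 1 each with the mean of probe sets, an adjusted p under 0.01 and a fold over 2 (1 to 4 without single arrays). For dox under trametinib the 0 calls of the 60 became 4 with array weights and 1 each with the replicate block, only the arrays compared and genes above the background level (0 to 3 without single arrays). The 0 calls of the 8 genes became 2 with array weights, 1 with the replicate block (Brca1) and 0 to 2 without single arrays. For the difference between responses array weights gave 1 of the 8 genes (Brca1, 1.54, adjusted p = 0.037) and 4 of the 60. The causes were not tested.

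Reversals concerned uncalled changes or probe sets under the background level. Averaged probe sets turned the dox change under DMSO of Brca1 to 0.017 and of Fanci to 0.082, and the difference of Fancd2 to -0.0625. Quantile normalisation turned Fanci under DMSO to 0.032 and the differences of Fanca and Blm to -0.020 and -0.011. Without single arrays the dox changes under DMSO ran from -0.175 to 0.090 for Brca1, -0.21 to 0.097 for Fanci, -0.083 to 0.34 for Rad51ap1 and -0.075 to 0.45 for Fanca, and the differences from -0.048 to 0.63 for Fancd2, -0.14 to 0.42 for Fanca and -0.27 to 0.43 for Blm. Single probe sets turned the trametinib change of Fancd2 in −dox cells to 0.0067 (1430916_at), and in +dox cells that of Brca1 to 0.047 (1427698_at) and Fanca to 0.11 (1452513_a_at). They turned the dox change under DMSO of Brca1 to 0.19 (1424630_a_at) and 0.05 (1451417_at) and of Fanci to 0.19 (1425941_a_at), and under trametinib that of Fancd2 to -0.25 (1430916_at). They turned the difference of Fancd2 to -0.40 (1430916_at), -0.01 (1438339_at) and -0.12 (1442092_at), and of Fanci to -0.16 (1425941_a_at). The replicate block changed no other call of the 8 genes than the 2 of Brca1 given beside its values.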

Other observations

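Rb1 was higher in +dox than in −dox cells both under trametinib (0.56, adjusted p = 0.012) and under DMSO (1.07, adjusted p = 0.00037, limma). Its group means were 11.51 in +dox trametinib, 10.40 in +dox DMSO, 10.95 in −dox trametinib and 9.33 log2 units in −dox DMSO cells, with no overlap of arrays in either comparison. The related pocket protein gene Rbl2 rose with trametinib in +dox cells by 0.95 (adjusted p = 0.00033), and its change in −dox cells was 0.37 (adjusted p = 0.063, or 0.046 without −dox DMSO replicate 3). Ercc5, the endonuclease XPG of nucleotide excision repair, was the gene of that list that fell with trametinib in +dox cells, by 1.06 on the log2 scale (adjusted p = 0.00021), and it was higher in +dox than in −dox cells under DMSO by 0.63 (adjusted p = 0.021).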
